A study of Mus musculus with 15 samples.

Results

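Kit, Sorcs2, Mcam, Fam20c, Rasl12, Rasd1, Rnf182 and Dixdc1 are 8 genes that were picked because their transcripts were much lower in mouse brown fat after treatment with an agonist of FGFR1 and its co-receptor KLB. They are 8 of 18194 genes with a probe set assigned to that gene alone, and all 8 were among the 13174 genes bright enough to be tested. The 15 arrays came from interscapular brown adipose tissue of adult male wild-type C57BL/6N mice, all fed a high-fat diet, with tissue taken on day 5 and 1 array per sample. In 5 mice (replicates 41 to 45) the agonist was bFKB1, an antibody against FGFR1/KLB given intraperitoneally once at 10 mg/kg (group aFGFR1/KLB). Another 5 (36 to 40) were given human FGF21 at 1 mg/kg, 2 times a day, and 5 controls (31 to 35) have no injected substance named in the labels. Antibody and FGF21 therefore differ in agent, dose and schedule, which cannot be told apart here.

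FGF21 is an endocrine fibroblast growth factor. It binds KLB and signals through FGFR1, a receptor tyrosine kinase that acts through the Ras and ERK cascade, and adipocytes carry both proteins. Of the genes described here, Kit and Mcam encode proteins of the cell surface, Sorcs2 a sorting receptor, Fam20c a kinase of the secretory pathway, Rasl12 and Rasd1 small Ras-like GTPases, Rnf182 a ubiquitin ligase and Dixdc1 a protein of the Wnt pathway.

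The choice of genes rested on the differences between treated and control mice. These differences are therefore given as a description with no test, and the comparison of the antibody with FGF21 is the one that is tested. Values are log2 of the authors' normalised intensity, a level of a probe set that cannot be set against another gene's level. All 5 antibody values lay below all 5 control values for 7 of the 8 genes, where 4.17% of all tested genes did so. All 5 FGF21 values did so for another set of 7 of the 8 genes, against 2.88% of all tested genes, and 6 genes met both conditions, against 1.15%. The genes were chosen for such values, so nothing follows from these counts. The exceptions were Rasd1 under the antibody and Sorcs2 under FGF21. Both treatments share the same 5 control samples, so that their differences from control are not independent.

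Brown fat identity was clear in every group. Ucp1, the uncoupling protein of brown fat, averaged 14.78 ± 0.04 with the antibody, 14.69 ± 0.08 with FGF21 and 14.59 ± 0.06 in controls (SD, n = 5 each), and the adipocyte hormone gene Adipoq 14.16 ± 0.06, 14.18 ± 0.04 and 14.13 ± 0.07. A few samples carried more RNA of other cells. The summed intensity of 18 macrophage markers was 53400 in FGF21 36 and 43600 in control 34, against at most 23800 in the other 13 samples. The sum of 16 skeletal muscle markers was 150000 in aFGFR1/KLB 45 and 138000 in FGF21 36, while its lowest value was 2430. Values without control 34 and FGF21 36 are given for the genes whose extremes they hold. In such tissue pieces, fewer cells of a type and less RNA per cell cannot be told apart.

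Kit, the receptor tyrosine kinase for stem cell factor and a marker of mast cells and melanocytes, measured 4.71, 5.56, 5.26, 5.25 and 5.06 in antibody-treated mice 41 to 45. FGF21-treated mice 36 to 40 had 5.27, 4.76, 5.03, 5.29 and 4.84. Controls 31 to 35 had 6.06, 6.45, 6.22, 6.61 and 6.20. Every treated sample was below every control, and the treated groups overlapped each other. The means were 5.17 ± 0.31 with the antibody, 5.04 ± 0.24 with FGF21 and 6.31 ± 0.22 in controls, which puts Kit at 45.4% of control with the antibody as a ratio of geometric means and at 41.4% with FGF21. Under the intensity filter of 5.06, the level below which genes were not tested, lay 1 of 5 antibody values, 3 of 5 FGF21 values and 0 of 5 controls. These percentages are therefore limited by signal over background and are not exact. Without control 34 and FGF21 36 the log2 differences from control were −1.06 with the antibody and −1.25 with FGF21. The other Kit probe set averaged 3.99, below the filter, and differed from control by 0.05 with the antibody and −0.07 with FGF21.

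Mcam encodes an adhesion molecule of the immunoglobulin family found on endothelium, pericytes and smooth muscle. Its levels were 7.73, 7.05, 7.16, 7.03 and 7.70 with the antibody, and 8.16, 7.15, 7.48, 7.57 and 7.32 with FGF21. Controls had 8.66, 8.61, 8.59, 8.83 and 8.35. The groups did not overlap with control, and FGF21 36 came nearest to it. The log2 difference from control was −1.28 ± 0.19 with the antibody and −1.07 ± 0.19 with FGF21 (± SE, n = 5 per group). Without control 34 and FGF21 36 these values were −1.22 and −1.17.

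Sorcs2 belongs to the receptors with a VPS10P domain, which sort proneurotrophins and other ligands. Antibody-treated mice had 6.03, 6.07, 6.14, 6.06 and 6.44. FGF21-treated mice had 6.61, 7.29, 7.32, 6.37 and 7.19, and controls 7.81, 8.28, 8.41, 7.29 and 7.25. The antibody group was tight and low, with 0.82 between its highest value and the lowest control, while FGF21 37 and 38 reached into the range of controls 34 and 35. Sorcs2 was at 31.6% of control with the antibody and at 55.3% with FGF21, with log2 differences of −1.66 ± 0.24 and −0.85 ± 0.24 (SE). Its difference ranked 6 among the falls of 13174 genes with the antibody and 56 with FGF21.

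Fam20c is the Golgi kinase that phosphorylates many secreted proteins. Its levels were 8.42, 8.76, 8.57, 8.57 and 9.14 with the antibody and 9.21, 7.75, 8.48, 8.17 and 8.30 with FGF21, against 10.19, 10.19, 10.29, 9.49 and 9.89 in controls. No treated sample reached the lowest control, 34, and FGF21 36 was the highest treated sample. Fam20c was at 40.1% of control with the antibody and at 32.4% with FGF21. Without control 34 and FGF21 36 its log2 differences were −1.45 with the antibody and −1.96 with FGF21. Of its 3 probe sets, all above the filter, the brightest differed from control by −1.32 and −1.63, the next by −1.24 and −1.47, and the dimmest by −0.63 and −0.91 (antibody and FGF21). The dimmest overlapped with control under the antibody.

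Rasl12 encodes a Ras-like GTPase whose function is little known. It measured 8.70, 8.96, 8.93, 9.16 and 9.06 with the antibody and 8.02, 8.08, 8.44, 8.47 and 8.63 with FGF21. Controls had 9.96, 10.30, 10.47, 9.77 and 9.95. The 3 groups did not overlap at all, with FGF21 lowest and control highest. Rasl12 was at 45.7% of control with the antibody and at 29.4% with FGF21, and its ranks among falls were 18 and 5. The log2 differences were −1.13 ± 0.15 and −1.76 ± 0.15 (SE), and −1.21 and −1.77 without control 34 and FGF21 36.

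Rasd1, a GTPase first described as induced by dexamethasone, measured 8.75, 8.61, 8.88, 9.13 and 8.71 with the antibody. FGF21-treated mice had 8.72, 7.89, 8.16, 8.65 and 8.69, and controls 9.72, 9.87, 9.98, 8.94 and 9.79. Control 34 was 0.78 below the next control and below aFGFR1/KLB 44, which is the overlap noted above. The log2 difference from control was −0.84 ± 0.20 with the antibody and −1.24 ± 0.20 with FGF21, and −1.02 and −1.49 without control 34 and FGF21 36.

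Rnf182 is a membrane-anchored ubiquitin ligase with a RING domain. Its levels were 6.42, 6.46, 6.40, 6.46 and 6.31 with the antibody, a spread of only 0.06 (SD), and 5.70, 6.29, 6.23, 6.03 and 6.24 with FGF21. Controls had 6.92, 7.65, 7.37, 6.69 and 7.29. The 3 groups did not overlap, again with FGF21 lowest. Rnf182 was at 58.6% of control with the antibody and 47.1% with FGF21. Its log2 differences were −0.77 and −1.09, and −0.89 and −1.11 without control 34 and FGF21 36. Its other probe set, also above the filter, was 0.75 lower than control with the antibody and 1.23 lower with FGF21 on the log2 scale.

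Dixdc1, which binds Dishevelled proteins through its DIX domain and promotes Wnt signalling, measured 6.94, 7.10, 6.91, 6.89 and 7.20 with the antibody. FGF21-treated mice had 7.01, 7.04, 6.98, 6.52 and 6.72, and controls 8.11, 7.82, 7.33, 7.81 and 7.87. Treated and control values were apart, although control 33 came within 0.12 of the highest antibody value. Dixdc1 was at 58.2% of control with the antibody and 52.4% with FGF21. Only 1 of its 4 probe sets was above the filter. The other 3, at 4.31 to 4.87, differed from control by −0.16 to 0.10 with the antibody and −0.27 to −0.08 with FGF21, so with all probe sets averaged the differences were −0.24 and −0.35.

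**Figure D1:**
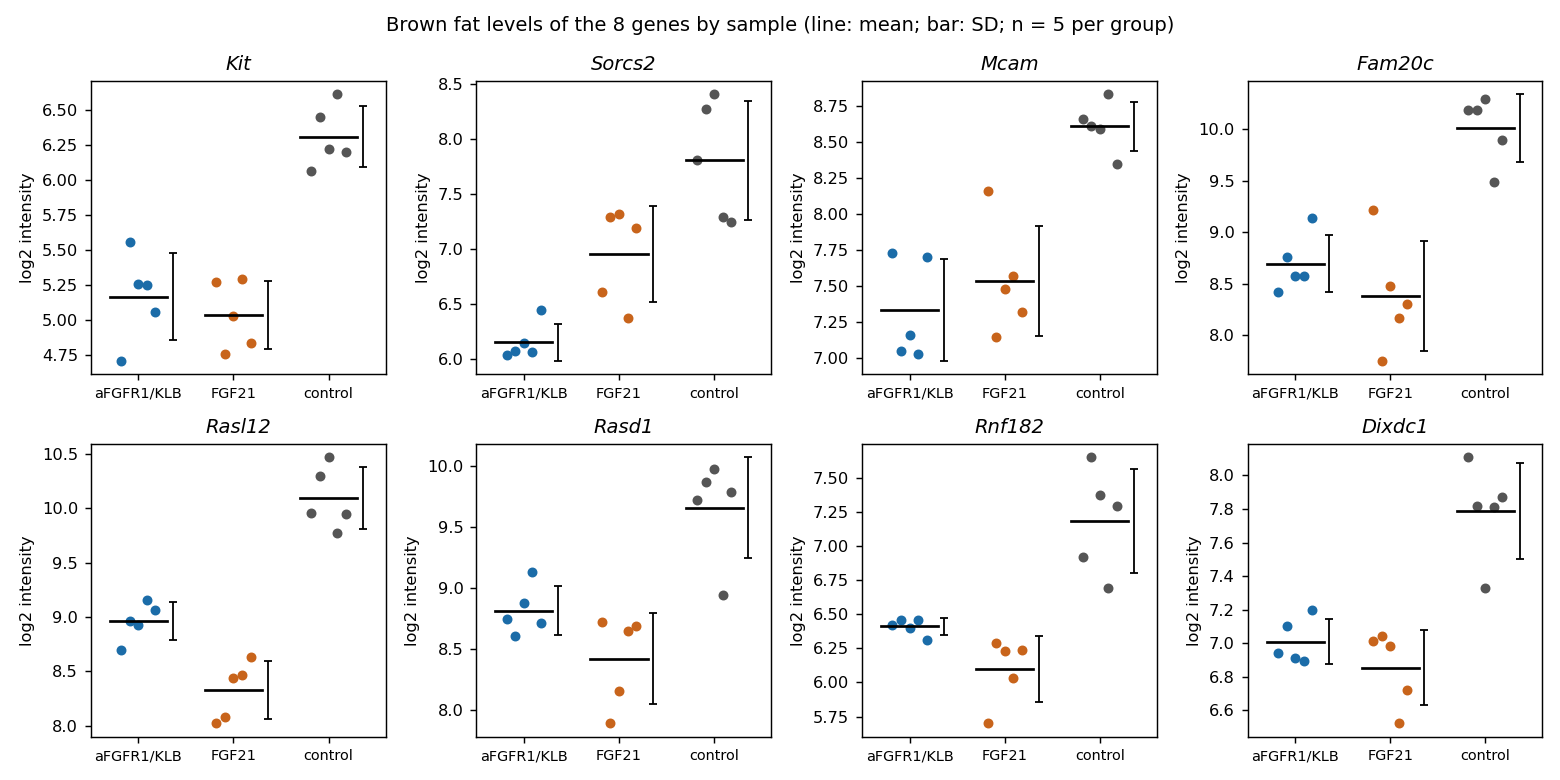
Log2 intensity of the 8 genes (vertical axis) in each of 15 samples by group (horizontal axis), each panel with its own scale; lines are means and bars SD, n = 5 per group. Treated samples lie below controls in every panel except for an overlap of Rasd1 under the antibody (9.13 against 8.94 in control 34) and of Sorcs2 under FGF21 (7.32 against 7.25 in control 35).

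**Figure D2:**
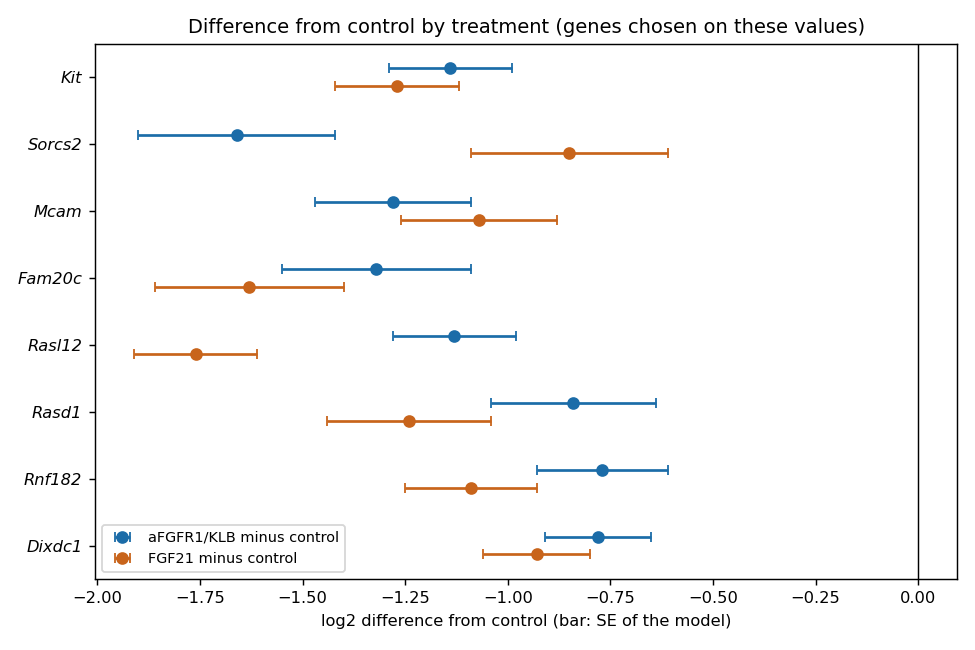
Log2 difference from control (horizontal axis) of each gene for the antibody and FGF21, with bars for the model's SE. Differences ran between −1.66 (Sorcs2) and −0.77 (Rnf182) for the antibody and between −1.76 (Rasl12) and −0.85 (Sorcs2) for FGF21, and the genes were chosen on these values.

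Promoter sequences from RefSeq (build GRCm38.p6) were matched by symbol for 6 of the 8 genes. Kit and Dixdc1 had 2 start sites each. The 250 bases before the first start of Kit and the start of Mcam, the cell surface genes, are shown, and likewise those of Rasl12 and Rnf182, the genes whose antibody and FGF21 values were apart. Capitals mark matches on either strand to the cAMP response element TGACGTCA, the E-box CACGTG, the AP-1 motif TGANTCA, the GC box GGGCGG, the TATA box TATAAA, the ETS motif CCGGAAG, the CCAAT box, or the glucocorticoid element, AGAACA and TGTTCT with a gap of 3 bases. The windows are chr5:75574737-75574986 (Kit), chr9:44134408-44134657 (Mcam), chr9:65398238-65398487 (Rasl12) and chr13:43615547-43615796 (Rnf182), all on the + strand.
Kit: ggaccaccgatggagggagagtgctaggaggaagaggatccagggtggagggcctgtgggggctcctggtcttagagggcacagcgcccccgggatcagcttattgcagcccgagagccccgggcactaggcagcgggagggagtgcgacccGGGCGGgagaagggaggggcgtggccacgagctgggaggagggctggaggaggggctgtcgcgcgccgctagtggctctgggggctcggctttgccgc
Mcam: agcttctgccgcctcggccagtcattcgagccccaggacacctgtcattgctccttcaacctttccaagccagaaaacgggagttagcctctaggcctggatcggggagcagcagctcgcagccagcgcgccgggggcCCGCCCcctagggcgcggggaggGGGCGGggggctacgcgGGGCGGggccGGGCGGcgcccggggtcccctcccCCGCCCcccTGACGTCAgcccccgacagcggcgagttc
Rasl12: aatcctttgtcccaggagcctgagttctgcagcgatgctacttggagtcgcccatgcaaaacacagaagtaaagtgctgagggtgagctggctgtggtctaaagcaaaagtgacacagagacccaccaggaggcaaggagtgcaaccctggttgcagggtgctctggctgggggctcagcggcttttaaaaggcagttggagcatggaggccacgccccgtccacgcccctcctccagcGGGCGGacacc
Rnf182: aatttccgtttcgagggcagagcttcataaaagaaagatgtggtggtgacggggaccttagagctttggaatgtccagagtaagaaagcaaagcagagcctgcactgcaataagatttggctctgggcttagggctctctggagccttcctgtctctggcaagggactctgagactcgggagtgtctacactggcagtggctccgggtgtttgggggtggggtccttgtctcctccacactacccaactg

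Mcam held the letters of the cAMP response element at 29 to 22 bases before its start, which 1.55% of 32851 RefSeq promoter windows of this length share, and 5 GC boxes. A GC box was also present in the windows of Kit, Fam20c and Rasl12, so in 4 of 6 genes. By window this was 5 of 8, where 32.7% of all windows have at least 1, and the 2 windows of Kit overlap almost fully. The CCAAT box occurred in Fam20c alone, 1 of 8 windows, against 33.8% of all windows. None of the 8 windows held an E-box (6.02% of all windows), an AP-1 motif (6.75%), a TATA box (12.4%), an ETS motif (6.91%) or the glucocorticoid element (0.00913%). The windows of Fam20c, Mcam and Kit were rich in G and C, at 81.2%, 73.6% and 70.8%, against a median of 52.4% over all windows. Rasl12 was at 59.2% and Rnf182 at 53.6%, and the windows of Dixdc1 were at 70.0% and 40.0%, the second below the median. These matches describe letters in a short window, and whether any factor binds there was not measured. In the same build, chromosome 5 holds Kit (chr5:75574987-75656722), Sorcs2 (chr5:36017180-36398197) and Fam20c (chr5:138755081-138810063). Chromosome 9 holds Mcam (chr9:44134658-44142727), Rasl12 (chr9:65398485-65416138) and Dixdc1 (chr9:50662752-50739602). Rasd1 (chr11:59963181-59964944) and Rnf182 (chr13:43615733-43670946) lie on chromosomes 11 and 13.

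Antibody-treated and FGF21-treated mice were compared to see where the agonists lowered these genes to different levels. None of the 8 differed in limma with Benjamini-Hochberg adjustment over 13174 genes (0 called), where 0.372% of all tested genes were called. At an unadjusted p under 0.05 there were 2 of 8, Rasl12 and Sorcs2, against 13.5% of all genes. Rasl12 was 0.63 ± 0.15 higher with the antibody than with FGF21 (8.96 ± 0.17 against 8.33 ± 0.27, SD, n = 5 each; 95% interval 0.32 to 0.95; adjusted p = 0.0758), and its antibody values exceeded its FGF21 values in all pairs of samples. Sorcs2 ran the other way, at 6.15 ± 0.17 with the antibody and 6.95 ± 0.44 with FGF21, a difference of −0.81 ± 0.24 (95% interval −1.32 to −0.29, adjusted p = 0.171). Without control 34, whose group adds to the shared estimate of spread, the adjusted p of Rasl12 was 0.032, and over all 25 alternatives it lay between 0.0274 and 0.346. That of Sorcs2 lay between 0.0101 and 0.687. Array weights gave both calls (adjusted p = 0.0274 for Rasl12 and 0.0101 for Sorcs2), and a macrophage covariate gave that of Sorcs2 (0.024). These samples also served to pick the genes, so the comparison is not independent of the choice.

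For the other 6 genes the interval of the difference between antibody and FGF21 included 0. Rasd1 differed by 0.39 (95% interval −0.04 to 0.82, adjusted p = 0.40 in limma), Rnf182 by 0.31 (−0.02 to 0.65, adjusted p = 0.394) and Fam20c by 0.31 (−0.19 to 0.80). The values of Rnf182 with the antibody were all above those with FGF21, so with Rasl12 2 of the 8 genes were higher without overlap, against 2.39% of all tested genes. None was lower without overlap (2.3% of all genes; 4.69% in either direction). Dixdc1 differed by 0.15 (−0.14 to 0.44), Kit by 0.13 (−0.20 to 0.46) and Mcam by −0.20 (−0.60 to 0.19). For Kit, with values of both treatments around the filter, this difference does not show that the levels were alike. The antibody level was above the FGF21 level in 6 of 8 genes and below it in Sorcs2 and Mcam.

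**Figure D3:**
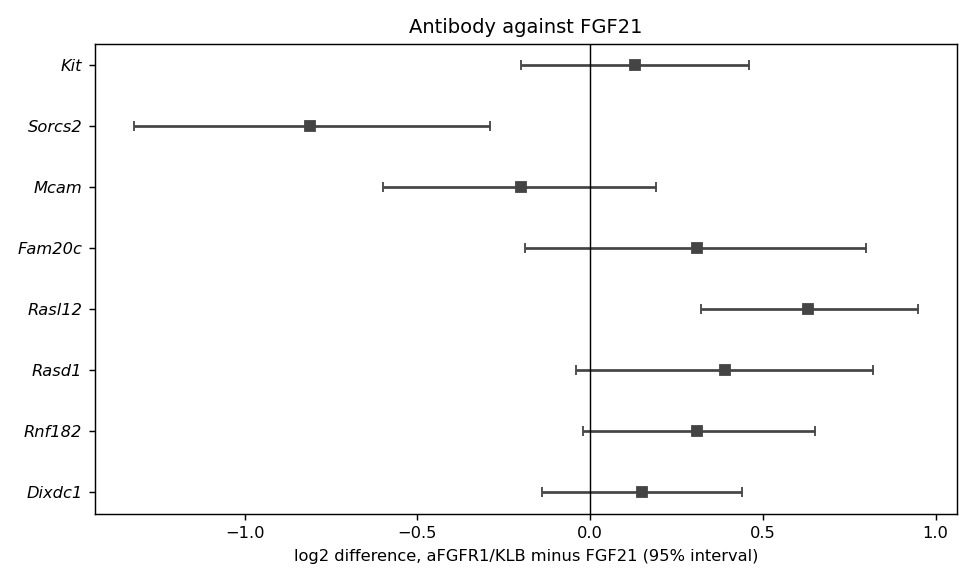
Log2 difference between the antibody and FGF21 groups (horizontal axis, antibody minus FGF21) for the 8 genes, with 95% intervals of the model, n = 5 per group. Only the intervals of Rasl12 (0.32 to 0.95) and Sorcs2 (−1.32 to −0.29) leave out 0, and neither passed after adjustment over all genes.

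Within groups, the genes varied more between mice than most: the residual SD was 0.23 to 0.41 on the log2 scale, at the 77.3rd to 92.1st percentile of all tested genes, whose median was 0.16. Control 34 had the lowest level of Fam20c, Rasl12, Rasd1 and Rnf182 among controls and the highest of Kit and Mcam. FGF21 36 had the highest Fam20c, Mcam and Rasd1 of its group and the lowest Rasl12 and Rnf182. These are the samples with the high macrophage sums, and the part of those cells in the spread was not tested. With macrophage markers as a covariate, or without both samples, every one of the 8 genes was again lower than control in both treatments. Since the genes were picked for such falls in these samples, this sign tests nothing about macrophages.

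Likeness between genes was measured as the mean absolute difference of their log2 values over the 15 samples, each gene centred on its own mean. Among the 28 pairs of the 8 genes it ran between 0.25 (Rasl12 and Rasd1) and 0.575 (Sorcs2 and Rasd1). All 8 genes were chosen for lower values in treated samples. Likeness among them, and to other genes that fell, therefore follows in part from the choice. Every pair with Sorcs2 was at 0.483 or more, and no other pair was above 0.434. Over the tested genes, with symbols of clones and predicted genes left out, the closest to Rasl12 was Ntrk3, a neurotrophin receptor (0.223), followed by Rasd1. Closest to Rasd1 (0.198) was Trarg1, a regulator of glucose transporter traffic, then Paxx, a DNA repair factor (0.211). Fam20c was closest to Rasl12 (0.262) and Trarg1 (0.264). Kit lay nearest to Klf10, a zinc finger transcription factor (0.256), and Nr3c2, the mineralocorticoid receptor (0.276).

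Sorcs2 was most like Fdft1, squalene synthase (0.252), and Lmo1 (0.338). Their log2 differences between antibody and FGF21 were −0.55 and −0.35, a direction that the choice by likeness to Sorcs2 favours. Mcam was nearest to Klhl13, an adaptor of a ubiquitin ligase (0.226), and Slc16a7, a monocarboxylate transporter (0.238). The smallest of the differences given here were those of Rnf182, with Ltbp2 (0.121) and Fam102a (0.132). Dixdc1 was nearest to Gpc4, a glypican, and Gramd4 (0.186 each). The measure is not scaled to how much a gene varies. The mean absolute deviation of a gene from its own mean ran between 0.381 (Dixdc1) and 0.693 (Fam20c), with 0.413 for Rnf182. A small difference alone therefore does not show a closer match. The nearest gene was at 0.121 for Rnf182, whose own deviation was 0.413. For Dixdc1 it was at 0.186, beside an own deviation of 0.381.

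Partners and relatives of the 8 genes and markers of other cells were followed in 20 lists. Of their 262 distinct tested genes, 14 were called with the antibody against control (5.34%, against 5.18% of all genes), 10 up and 4 down (2.69% and 2.49% of all genes), and 17 with FGF21 (6.49%, against 6.32%), 10 up and 7 down (2.64% and 3.68%). The shares called were near the background. At an unadjusted p under 0.05, which is given below where a list has 0 calls, 19.4% of all genes passed with the antibody and 20.4% with FGF21. The median log2 difference of all tested genes was −0.02 in both comparisons. Centring arrays on 40 ribosomal protein genes moved that median by 0.15 with the antibody and 0.06 with FGF21. Of the calls named below, it ended all but those of Ero1a, Mt1, Mt2 and Sgk1 and those of Sox17 and Per1 with the antibody. With FGF21 and control fitted alone, the FGF21 calls of list genes ended except those of Ntrk3, Mt1, Mt2 and Sgk1.

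Kitl, which encodes stem cell factor, the ligand of KIT, rose in both treatments. It measured 10.58, 10.68, 10.58, 10.81 and 10.74 with the antibody and 10.51, 10.93, 10.66, 10.77 and 10.59 with FGF21, against 10.27, 10.26, 9.88, 10.42 and 10.29 in controls. All treated values were above all controls, as they were for 4.44% of all genes with the antibody and 2.37% with FGF21. The log2 difference from control was 0.45 ± 0.10 with the antibody (limma adjusted p = 0.0192) and 0.47 ± 0.10 with FGF21 (adjusted p = 0.0129), while antibody and FGF21 differed by −0.02. With the antibody the call ended without aFGFR1/KLB 44 (adjusted p = 0.055), and the centring on ribosomal protein genes gave adjusted p of 0.0509 with the antibody and 0.0935 with FGF21. Kit, the gene of its receptor, was lower in the same samples.

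Of the 21 tested genes for KIT ligand and signalling, 2 rose and 0 fell with the antibody (median −0.06), and 1 rose and 2 fell with FGF21 (median 0.12). Besides Kitl these were Pik3ca, the catalytic subunit of PI3 kinase (0.19 with the antibody), Pik3r1, its regulatory subunit (−0.54 with FGF21), and the transcription factor Stat5a (−0.54 with FGF21). Their calls ended in 13, 4 and 11 of the 15 fits without a sample, with adjusted p up to 0.119, 0.0817 and 0.109. Receptor kinases related to KIT gave 0 calls of 7 in either comparison by limma (3 with the antibody and 2 with FGF21 at an unadjusted p under 0.05).

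Mast cells are a known source of Kit. None of 8 tested markers was called in limma in either comparison, and 0 had an unadjusted p under 0.05. The mast cell protease Cpa3 averaged 6.23 ± 0.55 with the antibody, 6.70 ± 0.53 with FGF21 and 6.40 ± 0.29 in controls, and Cma1, a chymase, 6.41 ± 0.50, 6.66 ± 0.49 and 6.53 ± 0.20. The summed intensity of all 12 markers was 639 to 775 with the antibody, 662 to 957 with FGF21 and 644 to 712 in controls. Fcer1a, Ms4a2, Mrgprb1 and Slc18a2 were below the filter. Of 7 melanocyte markers 5 (Tyr, Tyrp1, Dct, Mlana and Oca2) were below the filter, and the sum over all 7 was 235 to 265 with the antibody, 218 to 264 with FGF21 and 242 to 278 in controls.

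**Figure D4:**
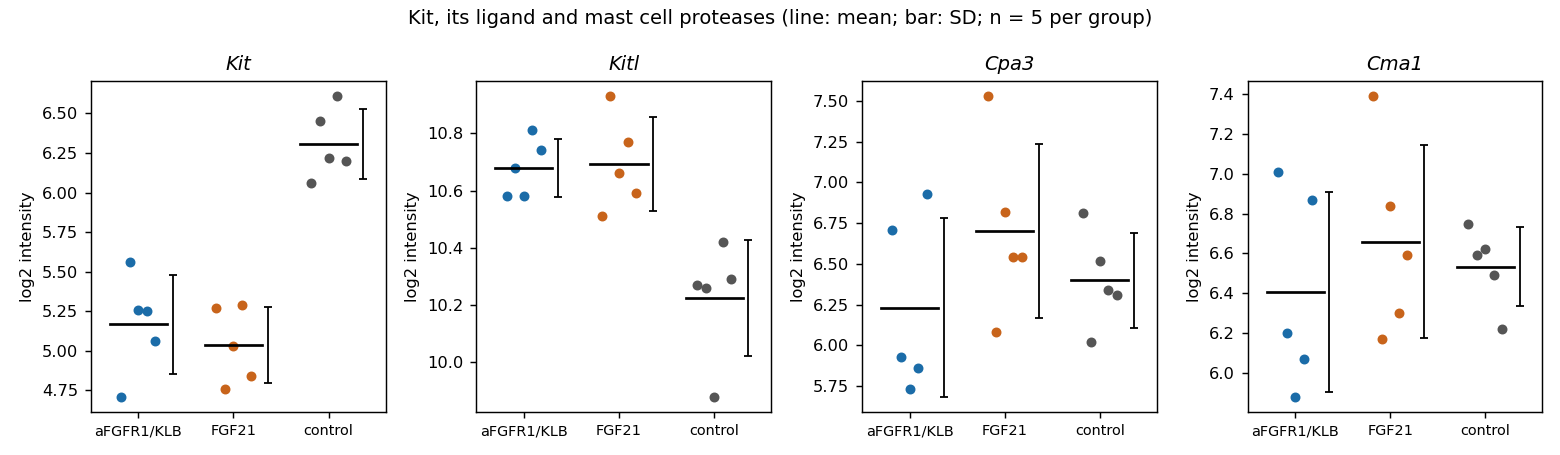
Log2 intensity (vertical axis, own scale in each panel) of Kit, its ligand gene Kitl and the mast cell protease genes Cpa3 and Cma1 in 15 samples by group; lines are means and bars SD, n = 5 per group. Kit was lower (5.17 and 5.04, against 6.31 in controls) and Kitl higher (10.68 and 10.69, against 10.22) in treated mice, while Cpa3 and Cma1 overlap between all groups.

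Markers of the vessel cells in which Mcam is found were set beside it. Of 19 tested pericyte and smooth muscle markers, 1 fell with the antibody (median −0.05) and 0 were called with FGF21 by limma (2 at an unadjusted p under 0.05; median −0.09). The gene that fell was Cspg4, a proteoglycan of pericytes (−0.49, adjusted p = 0.0211), and its call ended in 5 of 15 fits without a sample (31, 32 or 33 of the controls, 41 or 43 of the antibody group, adjusted p up to 0.0595). Rgs5, another pericyte gene, averaged 12.71 ± 0.07 with the antibody, 12.55 ± 0.28 with FGF21 and 12.62 ± 0.20 in controls. Pdgfrb averaged 9.67 ± 0.16, 10.10 ± 0.32 and 10.05 ± 0.56. The summed pericyte and smooth muscle markers were 11800 to 14900 with the antibody, 11500 to 14500 with FGF21 and 12500 to 13700 in controls, with Cnn1 alone below the filter.

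Of 18 tested endothelial markers, 1 rose with the antibody and 2 with FGF21 (medians 0.18 and 0.17), and 0 fell. Sox17, an endothelial transcription factor, rose by 0.63 with the antibody (adjusted p = 0.0055) and by 0.42 with FGF21 (adjusted p = 0.0321, up to 0.085 without control 31, 32 or 35 or FGF21 37 or 39), and Eng, a TGF-beta co-receptor, by 0.40 with FGF21 (adjusted p = 0.00829). Pecam1 averaged 7.45 ± 0.09 with the antibody, 7.61 ± 0.24 with FGF21 and 7.49 ± 0.15 in controls. The summed markers were 10100 to 11100, 9320 to 13100 and 8770 to 10100. Among 13 tested ligands and partners of MCAM, 0 were called against control by limma (6 in each comparison at an unadjusted p under 0.05). Wnt5a, a Wnt ligand, was the single gene of all lists called between the treatments, 0.50 higher with the antibody (7.57 ± 0.10 against 7.07 ± 0.15, adjusted p = 0.0438), and this call ended in 12 of 15 fits without a sample (adjusted p up to 0.13).

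Of 8 tested secretory pathway kinases, 0 were called in limma (0 with the antibody and 3 with FGF21 at an unadjusted p under 0.05). Fam20a, a pseudokinase that activates FAM20C, averaged 6.18 ± 0.08 with the antibody, 6.30 ± 0.08 with FGF21 and 6.29 ± 0.29 in controls. Fam20b, a xylose kinase, averaged 9.39 ± 0.08, 9.29 ± 0.07 and 9.37 ± 0.15. Among 12 tested FAM20C substrates, Ero1a, an oxidase of the endoplasmic reticulum, rose with the antibody (0.45, adjusted p = 0.00748, but 0.062 with all its probe sets averaged), and 0 were called with FGF21 (2 at an unadjusted p under 0.05).

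Of 12 tested sorting receptors and neurotrophin genes, Ntrk3 was the only call in each comparison. Its log2 difference was −1.02 with the antibody (adjusted p = 0.0168) and −1.21 with FGF21 (adjusted p = 0.00508), with medians of the list of −0.03 and −0.04. Both calls held in all 15 fits without a sample and ended with arrays centred on ribosomal protein genes (adjusted p = 0.166 and 0.0678). Sort1, the founding sorting receptor of the family, averaged 10.72 ± 0.07 with the antibody, 10.67 ± 0.10 with FGF21 and 10.70 ± 0.22 in controls. Sorl1 averaged 9.23 ± 0.18, 8.81 ± 0.29 and 8.85 ± 0.29. Ngfr, the neurotrophin co-receptor that pairs with SORCS2, averaged 5.40 ± 0.16, 5.31 ± 0.17 and 5.60 ± 0.06, close to the filter.

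Of 22 other tested Ras-like GTPases, 0 were called with the antibody by limma (2 at an unadjusted p under 0.05; median −0.06), and Rala, a GTPase of vesicle traffic, fell with FGF21 (−0.34, adjusted p = 0.0347, up to 0.0957 in the 6 of 15 fits without a sample that ended the call; list median −0.09). Rasd2, the closest relative of Rasd1, was below the filter at 4.85 ± 0.03, 4.80 ± 0.08 and 4.73 ± 0.12. So was Rerg, at 3.22 ± 0.14, 3.29 ± 0.19 and 3.32 ± 0.13 (antibody, FGF21, control).

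Glucocorticoid target genes, listed because dexamethasone induces Rasd1, had the most calls of the 20 lists. Of 16 tested, 4 rose and 1 fell with the antibody (median 0.33) and 6 rose and 0 fell with FGF21 (median 0.49). Of all tested genes, 2.69% rose and 2.49% fell with the antibody, and 2.64% rose and 3.68% fell with FGF21. The lists were chosen with earlier results of these data known, so these counts are not independent of the choice. Mt2 and Mt1, metallothioneins, rose by 1.23 and 0.62 with the antibody (adjusted p = 0.00142 and 0.00162) and by 2.03 and 0.81 with FGF21 (adjusted p = 1.15e-05 and 0.000144). Sgk1, a kinase, rose by 0.93 with the antibody and 0.84 with FGF21. Per1, a clock gene, rose by 1.05 with the antibody and by 0.79 with FGF21, the call with FGF21 ending in 6 of 15 fits without a sample (adjusted p up to 0.0709). The gene that fell was Angptl4, an inhibitor of lipoprotein lipase (−0.72, adjusted p = 0.0186), named here after its value was seen. Its call ended without control 32 or 33 or aFGFR1/KLB 44 (adjusted p up to 0.0528) and with ribosomal centring (0.0981). Fkbp5, a chaperone of the glucocorticoid receptor, averaged 7.39 ± 0.53 with the antibody, 8.0 ± 0.38 with FGF21 and 7.14 ± 0.49 in controls. Tsc22d3 averaged 9.81 ± 0.34, 9.67 ± 0.43 and 9.47 ± 0.17.

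Membrane ubiquitin ligases other than Rnf182 gave 1 rise of 19 tested with the antibody, that of Rnf185 (0.46, adjusted p = 0.0098), and 1 fall with FGF21, that of Znrf2 (−0.30, adjusted p = 0.0206, up to 0.0564 in the 3 of 15 fits without a sample that ended the call). Of 22 tested DIX-domain and beta-catenin pathway genes, the Wnt receptor gene Fzd8 fell with the antibody (−0.34, adjusted p = 0.0462, ending in 12 of 15 fits without a sample, adjusted p up to 0.116) and with FGF21 (−0.42, adjusted p = 0.0138, holding in all 15). Gsk3b, the kinase that marks beta-catenin for decay, fell with FGF21 (−0.23, adjusted p = 0.0303, ending in 6 of 15, up to 0.0804). Dvl1, a Dishevelled gene, averaged 10.68 ± 0.16 with the antibody, 10.68 ± 0.19 with FGF21 and 10.56 ± 0.12 in controls. Axin2, a common readout of beta-catenin, averaged 8.61 ± 0.17, 8.45 ± 0.23 and 8.74 ± 0.31. Of 12 tested beta-catenin target genes 0 were called in either comparison by limma (2 with the antibody and 0 with FGF21 at an unadjusted p under 0.05).

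**Figure D5:**
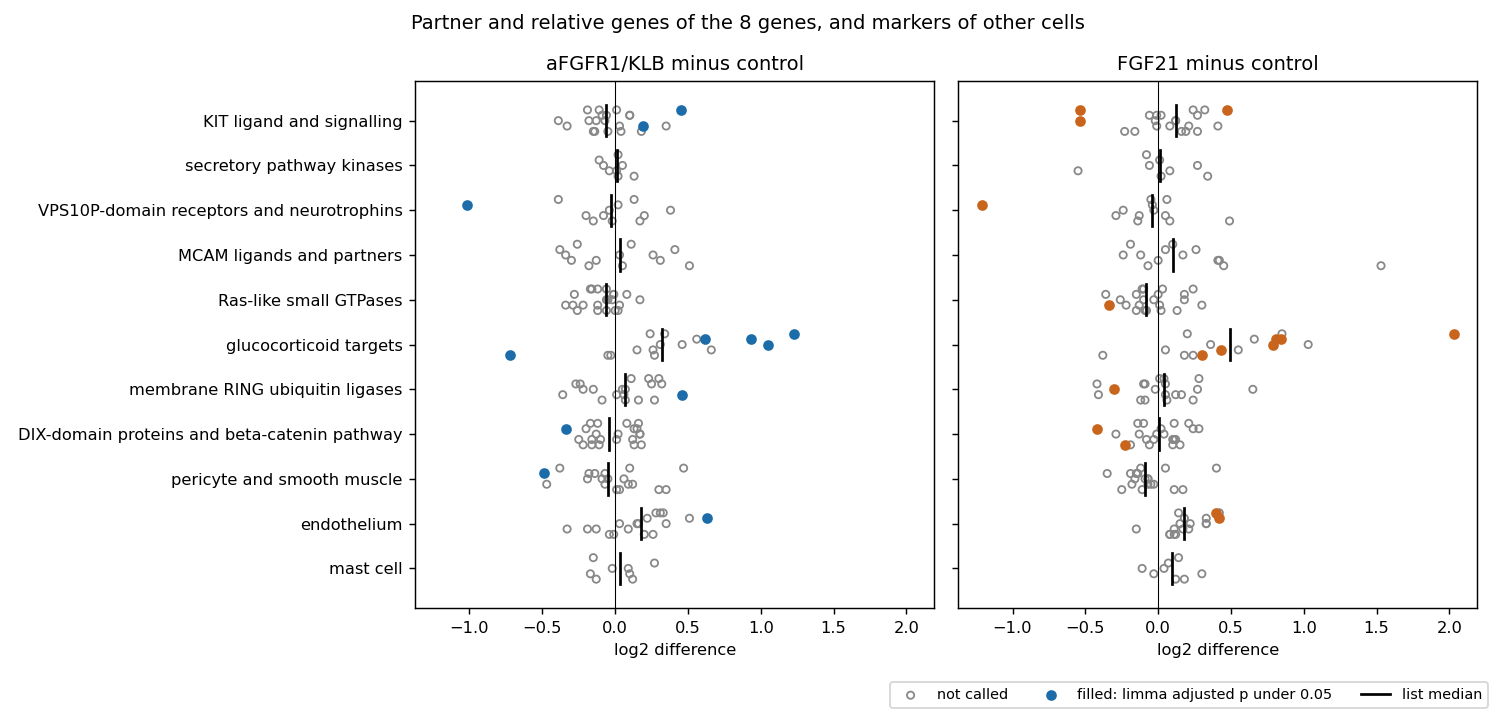
Log2 difference from control (horizontal axis) of each tested gene of 11 lists (rows) for the antibody (left) and FGF21 (right); filled points passed limma at an adjusted p under 0.05 and black lines are list medians. The medians of glucocorticoid targets were the highest of these 11 lists (0.33 and 0.49), and those of the mast cell, pericyte and Ras-like GTPase lists lay between −0.09 and 0.09.

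There were 0 calls by limma for macrophages, skeletal muscle, fibroblasts and Schwann cells in either comparison with control. The median of the macrophage list was −0.06 with the antibody and 0.54 with FGF21, above that of every other list with FGF21. At an unadjusted p under 0.05 there were 1, 0, 0 and 2 with the antibody and 1, 0, 0 and 1 with FGF21. Of 12 mature adipocyte genes, Ucp1 rose by 0.19 with the antibody (adjusted p = 0.0494) and Lpl, lipoprotein lipase, by 0.19 with FGF21 (adjusted p = 0.0489), and both calls ended in 14 of 15 fits without a sample (up to 0.119 and 0.121). The macrophage gene Cd68 averaged 9.31 ± 0.39 with the antibody, 10.08 ± 1.36 with FGF21 and 9.01 ± 1.54 in controls. The muscle actin gene Acta1 averaged 9.73 ± 4.42, 10.17 ± 3.72 and 11.96 ± 0.75. Summed muscle markers were 2430 to 150000, 2430 to 138000 and 14500 to 44100, so that treated samples held both the lowest and the highest values. With muscle markers as a covariate, or without aFGFR1/KLB 45 and FGF21 36, all 8 genes were again lower than control in both treatments. The choice of the genes favours that sign, and the part of muscle RNA in these differences was not tested.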

How the data were processed

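Total RNA of 15 samples was read on mouse arrays, 1 array each. The authors deposited, for every probe set, a linear intensity that the submitters' processing notes attribute to RMA; its version and any later step are not given in the sources used here. Array medians ran between 50.6 and 52.1, and the number of arrays limits the precision. Sample titles gave the groups.

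Intensities were taken to log2. Of 45101 probe sets, 34958 carry 1 gene symbol in GEO's platform annotation, 932 several, and 9211 are unnamed here. The brightest probe set stood for each of 18194 genes, and the 13174 genes over 5.06 (percentile 40 of the means) were tested. A model of 3 groups (12 residual degrees of freedom) was fitted with limma 3.58.1 in R 4.3.3, two-sided, with Benjamini-Hochberg adjustment over those genes and a threshold of 0.05, and was tested on simulated data.

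The 8 genes, the 20 lists (321 genes), the tests and the alternatives were chosen with earlier results of these data known. Genes named are the 8, up to 4 called per list and comparison by smallest p, a fixed set of relatives and markers, and the 2 most like each of the 8, without clone-like symbols. Wnt5a and Angptl4 were named after their values were seen.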

Additional observations from a re-analysis of the deposited data

Results flagged for a closer look

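In 16 of the 210 groups of 5 samples examined, 1 sample stood apart from the others by more than 0.71 of its group's range; chance alone flags about 1 group in 20. Among the 8 genes these were Sorcs2 in aFGFR1/KLB 45, at 6.44 with the next value at 6.14, and Rasd1 in control 34, at 8.94 with the next at 9.72. The ligand gene Kitl was at 9.88 in control 33, with the next control at 10.26.

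Control 34 also stood apart for Pdgfrb (11.03), Axin2 (8.19) and Slc16a7 (7.02), and for the summed macrophage markers (43600, next 14000) and fibroblast markers (71200, next 28300). Control 33 did so for Ero1a (8.34) and Wnt5a (6.97). FGF21 36 did so for Ucp1 (14.55), the summed mast cell markers (957, next 724) and the melanocyte markers (218, next 252). In the antibody group these were Dvl1 in aFGFR1/KLB 45 (10.96), Axin2 in 42 (8.9) and Ntrk3 in 41 (9.37).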

How the results depend on the processing

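All 398 values of the 8 genes against control stayed below 0 under the alternatives. The genes were chosen for falls in these same samples, so this sign is no test of them. Only Dixdc1 moved by more than its spread, to −0.24 with the antibody and −0.35 with FGF21, with all probe sets averaged. Kit has no value there, since its average was under the filter. The count of genes below control without overlap, 7 in each treatment, was 5 in each with ribosomal centring. Over all alternatives it was 5 to 8 with the antibody and 5 to 7 with FGF21. The number of genes called between antibody and FGF21 (49) was 87 with only those groups fitted, 8 with ribosomal centring, 832 with array weights, 133 with a macrophage covariate, 241 without control 34 and FGF21 36, 30 without aFGFR1/KLB 45 and FGF21 36, 82 with a muscle covariate, and 10 to 251 without 1 sample. The last pair left out and the muscle covariate were chosen after seeing the data. For the antibody against control (682) it was 184 with ribosomal centring, 2307 with weights, 1686 with the macrophage covariate, 1631 without control 34 and FGF21 36, and 336 to 1140 without 1 sample. For FGF21 against control (833) the same order gave 176, 2855, 1331, 2138 and 463 to 2097, and 322 with 2 groups fitted. List genes called with the antibody (14) were 7, 56, 45, 38 and 9 to 28, and with FGF21 (17) they were 3, 67, 28, 49 and 8 to 45, and 4 with 2 groups fitted. Of the 8 genes, 0 were called between treatments, 2 with weights, 1 with the macrophage covariate, and 0 to 1 without 1 sample (1 without control 34). Among the counts without 1 sample, each highest one came without control 34. With ribosomal centring the share of higher genes among calls was 12.5%, against 34.7% (antibody and FGF21), 89.1% against 51.9% (antibody and control) and 84.7% against 41.8% (FGF21 and control). The causes were not tested. No paired analysis was possible because the groups share no replicate numbers. Genes near the filter, such as Kit, are limited by signal over background.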
